A study of Mus musculus with 4 samples.

Results

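Bone morphogenetic protein (BMP) and ALK1 signalling and its Id target genes were described in dermal blood endothelial cells (BECs) from mouse ears, through 10 genes chosen by name out of the 46517 gene rows counted. They were the ligand genes *Bmp4* and *Bmp6*, the receptor genes *Acvrl1* (encoding ALK1), *Bmpr2* and *Eng* (endoglin), the inhibitory Smad genes *Smad6* and *Smad7*, and the target genes *Id1*, *Id2* and *Id3*. All 10 were counted on every plate, and all 10 passed the limit on low counts used for testing.

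In this pathway a BMP ligand brings together type I and type II serine/threonine kinase receptors at the cell surface. The type I receptor then phosphorylates Smad1, Smad5 or Smad9, which enter the nucleus with Smad4 and switch on targets that include the Id genes. Endothelium is known for a specialised branch, in which circulating BMP9 and BMP10 bind ALK1 with endoglin as co-receptor, and loss of *ACVRL1* or *ENG* causes hereditary haemorrhagic telangiectasia in humans. Id proteins lack a DNA-binding domain and hold E proteins such as Tcf3, Tcf4 and Tcf12 away from DNA.

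The cells came from ears of female adult C57Bl/6 mice (C57BL/6 J in the study's methods), wild type per those methods, and no sample was treated. They were 12 to 26 weeks old per the labels, whereas the study's methods give a younger range that overlaps this one in part. CD31+/CD45-/Lyve1- cells were sorted one per well into 384-well plates and sequenced with Smart-seq2, which reads along whole transcripts and gives no molecular identifiers. There was 1 group with 2 replicates of 2 plates each (A and B), and the labels speak of a pool of 6 mice without saying that the pools differed. The comparison possible here is between vessel classes within these wells, and p-values measure the spread between 2 replicates, which may be technical.

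Of 1536 wells, 701 were kept as BECs: 338 in replicate 1 and 363 in replicate 2, with a median of 142614 and 92974 reads per well. Clustering without the 10 genes gave artery-like wells (48 and 103 in replicates 1 and 2), capillary-like wells (126 and 42), vein-like wells (122 and 126) and a further cluster of 134 wells. The artery-like cluster carried 17 of its 20 class markers, the capillary-like cluster 14 of 16 and the vein-like cluster 14 of 18. The further cluster was led by the lymphatic gene *Mmrn1*, carried 9 of 10 lymphatic, 7 mural and 6 fibroblast markers, and entered no class. All 7 endothelial markers listed were above 10 CPM (counts scaled to a sum of 1000000 per well) in every class and replicate.

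The replicates differed in depth and in reads from other cell types. In replicate 1, a read of the fibroblast gene *Col1a1* was found in 92.9% of kept wells, at a median of 20.9 CPM in those wells, against 25.1% in replicate 2, so a single read there was not counted as expression. At 100 CPM and in sum, fibroblast measures ran level or the other way: *Col1a1* reached 100 CPM in 6.51% and 6.61% of kept wells, *Dcn* in 1.18% and 14.3%, and the 8 fibroblast markers summed to 486 and 873 CPM. By single reads, *Dcn* was found in 70.4% and 47.9% of kept wells. After thinning, *Col1a1* had a read in 40.7% and 9.52% and *Dcn* in 17.2% and 22.1%. The mural gene *Rgs5* reached 100 CPM in 65.1% of kept wells of replicate 1 and 16.3% of replicate 2. Capillary-like wells of replicate 2 were shallow, with a median of 24223.5 reads against 84574 in artery-like and 184556 in vein-like wells. Shares of wells are therefore given at 100 CPM or more, or after thinning every well to 20000 reads, which left out 20 of the 42 shallow capillary-like wells, and the intervals are exact binomial 95% intervals that cover counting error only. A thinned share still counts single reads. The fibroblast and mural genes *Col1a1*, *Dcn* and *Acta2* kept a read in 11.5 to 50.0% of the wells of the classes in replicate 1. In replicate 2 it was 5.13 to 26.3%. Thinned shares within or below these ranges, the background ranges used below, cannot be told from background. The mural genes *Tagln* and *Rgs5* went higher, with 31.0 to 67.2% and 83.6 to 93.8% in replicate 1. In replicate 2 they had 32.6 to 47.0% and 17.9 to 40.0%. *Tagln* also reached 100 CPM in 57.4% and 41.3% of vein-like wells. Shares above the background ranges, or at 100 CPM, are thus not clear of mural reads either. The capillary-like class was not alike in the replicates: its 16 capillary markers summed to 30243 CPM in replicate 1 and 9698 CPM in replicate 2. Its endothelial markers summed to 6743 and 3568 CPM and the lymphatic markers to 74.2 and 591 CPM. *Dcn* reached 100 CPM in 3.17% and 31.0% of its wells. The fibroblast list as a whole went the other way in this class, with 792 and 415 CPM, as did the mural list with 1608 and 291 CPM. The part of these in the members' levels was not tested.

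Per kilobase of exon, the scale on which genes can be compared, *Id3*, *Eng* and *Id1* stood far above the other members. *Id3* had 513 ± 261 CPM per kilobase (SD, n = 2 replicates), *Eng* 391 ± 196 and *Id1* 357 ± 193. These 3 genes came in the same order in each replicate, at 698, 529 and 494 CPM per kilobase in replicate 1 and 329, 252 and 221 in replicate 2, but the gaps between them were smaller than the spread between replicates. *Acvrl1* followed at 42.6 ± 26.1 CPM per kilobase, then *Bmp4* at 25.7 ± 0.849, *Id2* at 25.5 ± 4.05 and *Bmpr2* at 10.3 ± 1.36. *Acvrl1*, *Bmp4* and *Id2* could not be ordered, since *Acvrl1* was above the other two in replicate 1 and below *Bmp4* in replicate 2. *Bmp6* (4.10 ± 2.78), *Smad7* (3.91 ± 3.49) and *Smad6* (3.25 ± 0.369) were lowest and could not be ordered either. Duplicate reads had been removed, which can limit the counts of abundant genes, and the size of such a limit was not tested. The highest *Id1* count in a well was 880 for 1160 bases of exon. The highest *Eng* count was 2332 for 4048 bases, and the highest *Id3* count 801 for 1791 bases.

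Neither ligand gene was common among the wells. *Bmp4* (chr14:46383520-46390669, minus strand, mm10) encodes a secreted ligand of the type I receptors ALK3 and ALK6. Its mean level over kept wells was 64.1 CPM on plate 1A, 49.9 on 1B, 87.1 on 2A and 32.8 on 2B, and 13.0% of kept wells in replicate 1 (9.62 to 17.1%) and 7.99% in replicate 2 (5.42 to 11.3%) reached 100 CPM. In vein-like wells the 4 plates had 126, 55.0, 99.6 and 58.6 CPM, in artery-like wells 6.79, 34.5, 179 and 14.1 CPM, and in capillary-like wells 29.0, 65.9, 3.57 and 18.6 CPM. The vein-like value was above the artery-like one on 3 of 4 plates and the groups overlapped. After thinning, 27.9% of vein-like, 19.0% of capillary-like and 10.4% of artery-like wells had a read in replicate 1, and 17.9%, 13.6% and 9.47% in replicate 2. Vein-like wells had the highest share on 4 of 4 plates, as for 11.6% of the 8683 genes with at least 10 CPM in both replicates, and artery-like wells the lowest, as for 3.29%, and the intervals of neighbouring classes overlapped. All 6 shares lay within the background ranges given above or, for artery-like wells of replicate 1, below. At 100 CPM or more vein-like wells were again highest, with 18.9% and 15.1% in replicates 1 and 2, but the artery- and capillary-like shares changed order, from 4.17% and 13.5% to 5.83% and 2.38%. The fitted difference, vein-like wells against the average of the remaining classes, was 0.85 on the log2 scale (SE 0.66, edgeR adjusted p = 1.0), and it was 0.28 without plate 1A and 1.70 without plate 1B.

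*Bmp6* (chr13:38345107-38500302, plus strand) encodes a ligand best known for the control of hepcidin and iron balance, and in the liver it is made by endothelial cells. It was rarer still, at 21.8, 25.2, 10.5 and 6.30 CPM over the kept wells of plates 1A, 1B, 2A and 2B, with 6.21% of kept wells in replicate 1 (3.89 to 9.34%) and 1.65% in replicate 2 (0.609 to 3.56%) at 100 CPM or more. Artery-like wells had 71.2, 8.07, 19.5 and 20.4 CPM on the 4 plates, vein-like wells 17.1, 5.97, 1.90 and 0 CPM, and capillary-like wells 22.1, 57.2, 44.8 and 0 CPM. In mean CPM vein-like wells were below artery-like wells on 4 of 4 plates, as for 5.58% of the 15743 genes tested, yet the ranges overlapped. In counts summed over wells before scaling this held on 3 of 4 plates, and by share of wells with a read on 2 of 4. The share was 10.4% of artery-like and 13.9% of vein-like wells in replicate 1, and 3.88% and 3.17% in replicate 2. *Bmp6* was read in 5 of 48 and 4 of 103 artery-like wells. Of the 30 comparisons of a member, the one with the smallest p was this: vein-like against the other classes it was −2.89 on the log2 scale (SE 1.35), with an edgeR adjusted p = 1.0 and adjusted p between 0.072 and 1.0 over the other settings. The vein-like reads of replicate 2 numbered 20 in all, and without replicate 1 the difference was −4.57 and without replicate 2 −1.67. Of its exon bases, 224 also lie in exons of the opposite-strand gene *Txndc5*, and whether reads were counted by strand is not given in the sources used here.

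Among the receptors, *Eng* reached 100 CPM in most wells and *Acvrl1* and *Bmpr2* in a minority. *Eng* (chr2:32646595-32682669, plus strand) encodes endoglin, the co-receptor that presents BMP9 and BMP10 to ALK1. Over kept wells it stood at 2260, 2043, 1269 and 788 CPM on plates 1A, 1B, 2A and 2B, and 97.6% of wells in replicate 1 (95.4 to 99.0%) and 66.9% in replicate 2 (61.8 to 71.8%) reached 100 CPM. Vein-like wells had 2517, 2262, 2030 and 1295 CPM on the 4 plates, artery-like wells 1683, 1761, 1071 and 971 CPM, and capillary-like wells 2556, 2201, 1003 and 441 CPM. The vein-like value was above the artery-like value on 4 of 4 plates, a pattern that 15.2% of those 8683 genes showed, and the artery-like level was 0.729 and 0.603 times the vein-like level in replicates 1 and 2. Capillary-like wells stood at 2370 CPM against 2383 CPM in vein-like wells in replicate 1, and at 629 CPM against 1686 CPM in replicate 2, where they were shallow. The fit gave 0.40 on the log2 scale for vein-like against the other classes (SE 0.24, edgeR adjusted p = 1.0), with 0.69 without replicate 1 and 0.16 without replicate 2.

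*Acvrl1* (chr15:101128522-101145336, plus strand) encodes ALK1, the type I receptor of this branch. Its level over kept wells was 238, 280, 69.6 and 135 CPM on plates 1A, 1B, 2A and 2B, and 34.3% (29.3 to 39.6%) and 14.6% (11.1 to 18.7%) of kept wells reached 100 CPM. Capillary-like wells had 405 and 332 CPM in replicate 1 but 18.7 and 45.7 CPM in replicate 2, a reversal of rank, in a class that differed in its markers as given above, against vein-like wells, which had 90.5 and 116 CPM and then 108 and 184 CPM. After thinning to equal depth, 50.8% of capillary-like wells of replicate 1 had an *Acvrl1* read (95% interval 41.7 to 59.8%), against 36.9% of vein-like wells. In replicate 2 it was 9.09% (1.12 to 29.2%, 22 wells) against 23.9%. The 50.8% was just above the background range of its replicate and the other shares lay within. Among capillary-like wells of replicate 1 the mural gene *Tagln* kept a read in 31.0% and *Rgs5* in 93.7%, so the 50.8% is not clear of mural genes. Artery-like wells had 211, 453, 63.2 and 141 CPM. For artery-like against the other classes the fitted difference was 0.74 on the log2 scale (SE 0.60, edgeR adjusted p = 1.0), and it turned to −1.64 with the stricter limit of 10 CPM on genes of other cell types, which left 2 artery-like wells in replicate 1.

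*Bmpr2* (chr1:59763400-59879014, plus strand), the type II receptor gene mutated in heritable pulmonary arterial hypertension, was the steadiest of the receptors. Its level over kept wells was 194, 147, 187 and 218 CPM on the 4 plates, and 40.2% (35.0 to 45.7%) and 28.7% (24.1 to 33.6%) of kept wells reached 100 CPM. Artery-like wells had 303, 158, 269 and 293 CPM, vein-like wells 189, 137, 187 and 249 CPM and capillary-like wells 169, 179, 320 and 232 CPM. The artery-like value exceeded the vein-like one on 4 of 4 plates, as it did for 6.23% of the 8683 genes, by 1.26 and 1.31 times in replicates 1 and 2, and the ranges overlapped. In counts summed over wells before scaling, the ratio was 0.998 and 1.36 and artery-like wells were higher on 3 of 4 plates. The share of wells ran the other way, with 35.4% and 32.0% of artery-like wells at 100 CPM or more in replicates 1 and 2 against 41.8% and 40.5% of vein-like wells. After thinning, 47.9% and 46.3% against 53.3% and 53.0% had a read. The intervals at 100 CPM overlapped, at 22.2 to 50.5% against 32.9 to 51.1% and 23.2 to 42.0% against 31.8 to 49.6%. The 47.9% lay within the background range of its replicate. The comparison with the smallest p was capillary-like against the others, 0.47 on the log2 scale (SE 0.36, edgeR adjusted p = 0.91), and it was 0.78 without replicate 1 and 0.18 without replicate 2.

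The inhibitory Smads, which block the receptor-activated Smads and are themselves BMP targets, were detected in few wells. *Smad6* (chr9:63953076-64022059, minus strand) stood at 5.21, 13.3, 12.7 and 9.87 CPM over the kept wells of plates 1A, 1B, 2A and 2B, with 2.66% (1.22 to 4.99%) and 2.48% (1.14 to 4.65%) of wells at 100 CPM or more. By class, 0, 18.9, 16.6 and 16.8 CPM were measured in artery-like wells, 2.79, 13.8, 10.2 and 6.44 CPM in capillary-like wells and 11, 13.5, 3.22 and 12.3 CPM in vein-like wells. These ranges overlapped, and capillary-like against the other classes gave −1.0 on the log2 scale (SE 1.3, edgeR adjusted p = 0.93).

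*Smad7*, on chromosome 18, also restrains TGF-beta receptors. Its kept-well level was 21.9 and 34.8 CPM on the plates of replicate 1 and 5.01 and 7.95 CPM on those of replicate 2, and 8.58% (5.82 to 12.1%) and 1.65% (0.609 to 3.56%) of kept wells reached 100 CPM. Artery-like wells had 1.24, 57.8, 0.478 and 2.63 CPM, capillary-like wells 41.3, 49.6, 0.683 and 0 CPM, and vein-like wells a narrow 14.3, 14.5, 12.7 and 11.9 CPM. Only the vein-like level was alike in the replicates in mean CPM, and the order of the classes turned over between them. The vein-like share of wells with a read was not alike, at 17.2% in replicate 1 and 5.56% (7 of 126 wells) in replicate 2. The fitted 1.65 on the log2 scale for vein-like against the others (SE 1.85, edgeR adjusted p = 1.0) became −1.03 without the replicate block and −1.96 without replicate 2.

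**Figure D1:**
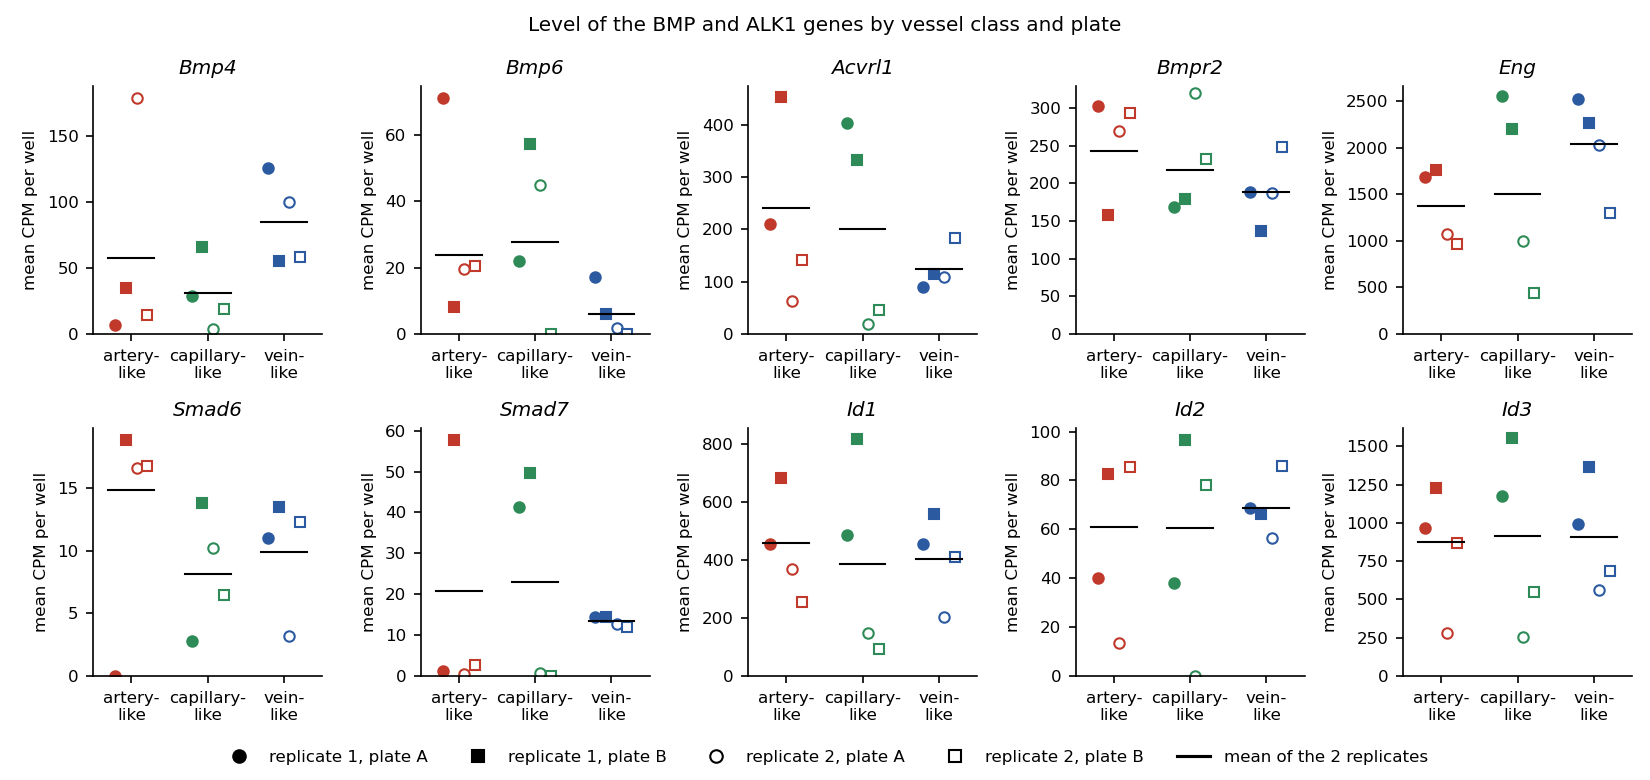
Mean CPM per well of each gene (vertical axis, linear from 0) in artery-, capillary- and vein-like wells, with filled points for the plates of replicate 1, open points for those of replicate 2 and a line at the mean of the 2 replicates. The capillary-like points of *Acvrl1*, *Id1* and *Id3* split by replicate, with *Acvrl1* at 405 and 332 CPM against 18.7 and 45.7 CPM.

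The Id genes encode helix-loop-helix proteins that were named as inhibitors of DNA binding and are standard readouts of BMP and ALK1 activity. *Id1* (chr2:152736251-152737410, plus strand) and *Id3* (chr4:136143497-136145755, plus strand) were abundant, whereas *Id2* (chr12:25093799-25097140, minus strand) was not. The proximal promoters of *Id3* and *Id2* are shown because *Id3* was the gene most like *Id1* across wells. *Id2*, with a read in 19.8% of kept wells of replicate 2, was found in too few wells to be ranked. They are the RefSeq sequences (GRCm38.p6) from 250 bases before to 50 bases after the start of transcription, at chr4:136143572-136143871 on the plus strand and chr12:25096043-25096342 on the minus strand. Both windows lie inside the GENCODE spans given above, since the starts in the RefSeq table lie within those spans. *Id1*, *Acvrl1* and *Smad7* had no entry. Capitals mark GGCGCC, a GC-rich element known to bind Smad1 and Smad5, and GTCT or AGAC, the Smad-binding element on either strand.
Id3: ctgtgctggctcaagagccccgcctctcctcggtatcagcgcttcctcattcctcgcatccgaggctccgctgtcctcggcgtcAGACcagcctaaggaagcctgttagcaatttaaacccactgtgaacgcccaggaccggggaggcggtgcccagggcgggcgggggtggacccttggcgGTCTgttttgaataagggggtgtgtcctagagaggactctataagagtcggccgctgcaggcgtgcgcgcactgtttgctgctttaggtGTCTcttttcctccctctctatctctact
Id2: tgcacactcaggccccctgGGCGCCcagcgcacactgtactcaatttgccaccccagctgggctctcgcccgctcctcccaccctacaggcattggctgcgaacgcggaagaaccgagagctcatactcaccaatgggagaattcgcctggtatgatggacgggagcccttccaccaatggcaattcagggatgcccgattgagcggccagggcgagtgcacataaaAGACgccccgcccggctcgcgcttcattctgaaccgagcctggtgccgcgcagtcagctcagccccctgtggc
The *Id3* window held 3 matches of GTCT or AGAC and none of GGCGCC, and the *Id2* window held 1 of each. Among all 32851 promoters of this length in the table, 88.0% held GTCT or AGAC and 11.9% held GGCGCC, so the first kind of match is found in most promoters. The joint element, GGCGCC and GTCT 5 bases apart in this order on either strand, was in 0.0731% of all promoters and in none of the 7 members with an entry. *Eng*, *Bmp4*, *Bmp6* and *Smad6* held GTCT or AGAC only, and *Bmpr2* held GGCGCC only.

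Over kept wells, *Id1* stood at 433, 692, 257 and 256 CPM on plates 1A, 1B, 2A and 2B. It varied widely from well to well: the lowest, median and highest wells had 0, 385 and 3718 CPM in replicate 1 and 0, 6.13 and 5402 CPM in replicate 2. At 100 CPM or more, 71.3% of wells counted in replicate 1 (95% interval 66.2 to 76.1%) and 31.4% in replicate 2 (26.7 to 36.5%). By class, artery-like wells had 457, 682, 369 and 256 CPM, vein-like wells 454, 560, 202 and 409 CPM, and capillary-like wells 487, 819, 148 and 92.4 CPM. Capillary-like wells were highest on both plates of replicate 1 and lowest on both of replicate 2, so no class stood apart, and that class also differed between the replicates in its markers. Artery-like against the other classes gave 0.55 on the log2 scale (SE 0.41, edgeR adjusted p = 1.0), with 0.93 without replicate 1 and 0.14 without replicate 2.

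*Id3* stood at 1072, 1401, 415 and 754 CPM over the kept wells of the 4 plates. The lowest, median and highest wells had 13.7, 1023 and 5831 CPM in replicate 1 and 0, 59.9 and 22524 CPM in replicate 2, and 89.6% (85.9 to 92.7%) and 46.6% (41.3 to 51.8%) of wells reached 100 CPM. Artery-like wells had 966, 1226, 284 and 868 CPM, capillary-like wells 1173, 1554, 256 and 551 CPM, and vein-like wells 994, 1367, 561 and 688 CPM. Of the 10 differences printed, one for each member, that of *Id3* was nearest to 0: vein-like against the others was −0.08 on the log2 scale (SE 0.26, edgeR adjusted p = 1.0). The higher level in replicate 1, 2.12 times that of replicate 2 in CPM, depended on the scaling and was 0.791 times with scran size factors, whereas the *Id1* ratio of 2.24 became 1.46 and the *Eng* ratio of 2.1 became 1.70.

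*Id2*, better known in lymphocytes and dendritic cells, stood at 58.3, 78.4, 27.5 and 81.1 CPM over kept wells, with 18.3% (14.4 to 22.9%) and 10.2% (7.28 to 13.8%) of wells at 100 CPM or more. Artery-like wells had 40.1, 82.6, 13.4 and 85.6 CPM, capillary-like wells 38.0, 96.6, 0 and 78.2 CPM, and vein-like wells 68.6, 66.3, 56.5 and 86.1 CPM. The class means over replicates lay close together and the plates overlapped. By share of wells, vein-like wells were highest on 4 of 4 plates after thinning, as for 11.6% of the 8683 genes, with 34.4% against 24.6% of capillary-like and 22.9% of artery-like wells in replicate 1 and 22.2% against 13.6% and 9.47% in replicate 2, all within the background ranges. At 100 CPM or more they were highest too, with 23.8% (16.5 to 32.3%) and 15.9% (9.97 to 23.4%), and the intervals overlapped with those of both other classes in each replicate. Capillary-like against the others gave 0.72 on the log2 scale (SE 0.57, edgeR adjusted p = 0.91), and it was −1.70 without plate B of replicate 2.

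**Figure D2:**
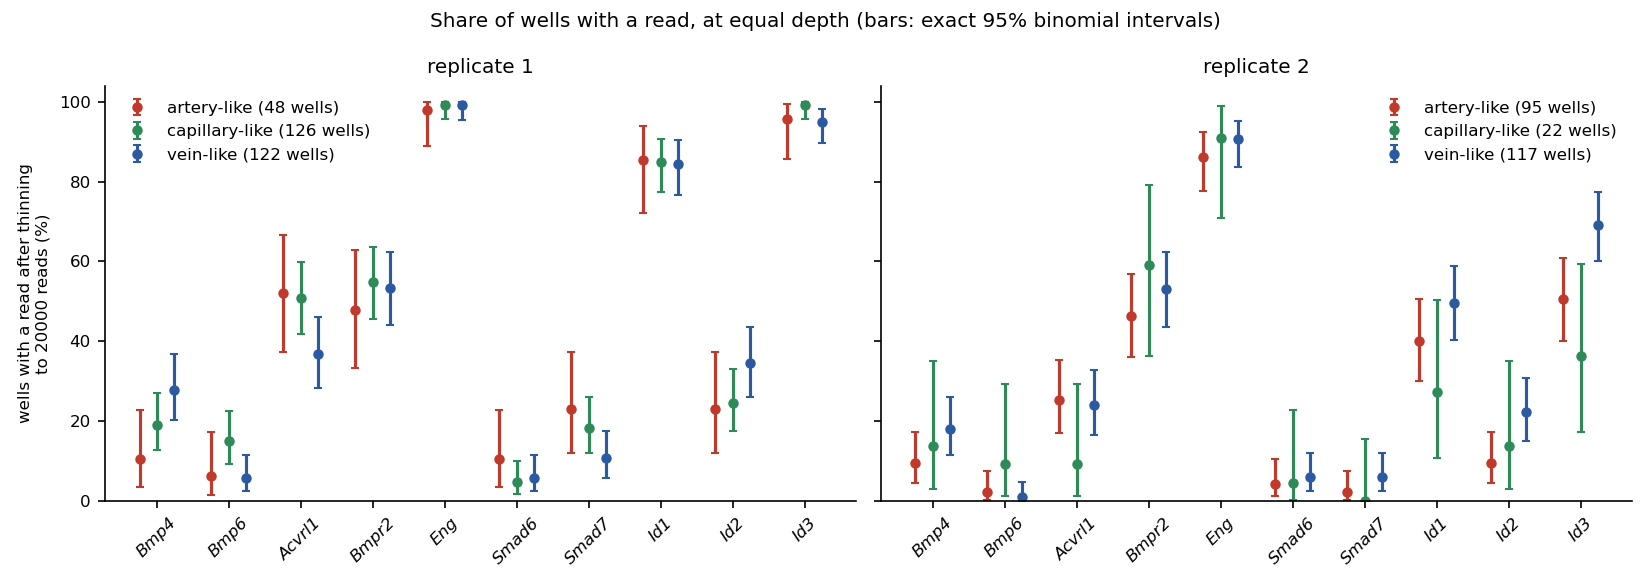
Share of wells with at least 1 read of each gene after thinning each well to 20000 reads (vertical axis, percent), by class and replicate, with exact 95% binomial intervals. *Eng* lies above 85% in every class of both replicates, and *Id1* lies between 84.4% and 85.4% in the classes of replicate 1 and between 27.3% and 49.6% in those of replicate 2.

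In the tests, none of the 10 genes passed the threshold in any of the 3 comparisons of one class with the average of the remaining 2. The edgeR quasi-likelihood test on counts summed per replicate and class, adjusted over 15743 genes by Benjamini-Hochberg, called 0% of genes for artery-like, 0% for capillary-like and 0.0191% (3 genes, all higher) for vein-like wells, so the members' count of 0 stands against a background close to 0. At an unadjusted p under 0.05, 0 of 10 members passed in each comparison, against 4.15%, 4.19% and 4.88% of all genes. DESeq2 called 1.45%, 1.9% and 1.38% of genes and limma on mean CPM called 0% in each comparison, and neither called a member. With 2 replicates and 2 residual degrees of freedom these fits leave wide errors, as the SE of 0.24 for *Eng* and 1.85 for *Smad7* show, and differences of the sizes printed cannot be told from no difference. The median log2 difference over the 10 members was 0.01, −0.25 and −0.06 in the artery-, capillary- and vein-like comparisons, beside 0.03, −0.11 and 0.14 over all genes.

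In mean CPM the order of the classes changed from plate to plate for most members. Of the 8683 genes with at least 10 CPM in both replicates, 9.31% had the same class highest on 4 of 4 plates and 7.45% the same class lowest, and of the 7 members in that set 0 did either. Between pairs of classes, *Bmpr2* and *Eng* were the only ones of these 7 ordered alike on 4 of 4 plates, in the directions given above, and 0 of 7 were in the other 4 directions, where 12.3% (artery-like above capillary-like), 3.79% (the reverse), 2.55% (capillary-like above vein-like) and 20.4% (the reverse) of the 8683 genes were. *Bmp6*, *Smad6* and *Smad7* fell below that level in at least 1 replicate. The summed level of the mural marker list in the classes ran from 958 to 1608 CPM in replicate 1 and from 291 to 411 CPM in replicate 2, and that of the dissociation-induced genes was highest in vein-like wells in both replicates, 32787 and 24891 CPM against 6066 to 16028 CPM in the other classes. The part of either in the members' levels was not tested.

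Across single wells, *Id1* and *Id3* had the highest correlation of the 45 pairs of members in both replicates. They had a Spearman correlation of 0.358 over the 338 kept wells of replicate 1 and 0.342 over the 363 of replicate 2. Among the 3923 genes with a read in at least 20% of kept wells of both replicates, *Id3* was the gene most like *Id1* and *Id1* the gene most like *Id3*, ranked by the lower of the 2 replicates' correlations, where the median gene had 0.011 and 0.069 with *Id1*. These correlations describe wells that share plates, pools and differences in depth, and no p is attached to them.

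The correlation was much the same at equal depth and was above 0 in every class. After thinning, the correlation was 0.342 in replicate 1 and 0.350 in replicate 2, and over the artery-, capillary- and vein-like wells alone, without the further cluster, it was 0.339 and 0.352. Within classes it was 0.592 and 0.295 in artery-like, 0.293 and 0.275 in capillary-like and 0.277 and 0.398 in vein-like wells, positive in all 6 sets. In the 42 capillary-like wells of replicate 2 it was not the highest of the 45 pairs, the highest being 0.591 for *Smad6* and *Smad7*, with a read in 3 wells and 1 well there. In replicate 1, where *Id1* had a correlation of 0.036 with the number of reads per well and *Id3* −0.00053, depth moved with neither gene, and in replicate 2 the values were 0.285 and 0.298. The summed mural markers had correlations of −0.0027 and 0.0094 with *Id1* and −0.00046 and −0.012 with *Id3*. The lymphatic markers had −0.044 and −0.169 with *Id1* and −0.079 and −0.163 with *Id3*, the fibroblast markers −0.092 and −0.034 and then −0.088 and −0.033, and the artery markers 0.059 and 0.244 and then 0.028 and 0.242. The dissociation-induced genes had 0.059 and 0.163 with *Id1* and 0.133 and 0.235 with *Id3*, and the part of any of these lists in the pair was not tested.

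The same relation was seen in counts of wells. In replicate 2, 70.2% of the wells with *Id1* at 100 CPM or more also had *Id3* at that level (95% interval 60.9 to 78.4%), against 35.7% of the other wells (29.8 to 42.0%). In replicate 1 the shares were 95.4% (92 to 97.7%) and 75.3% (65.5 to 83.5%). In numbers of wells, 80 in replicate 2 held both genes at that level, 34 *Id1* alone, 89 *Id3* alone and 160 neither. Within single classes the share was again higher in wells with *Id1* in each of the 6 sets, but the intervals overlapped in all but the artery-like wells of replicate 1, and these counts are not thinned.

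**Figure D3:**
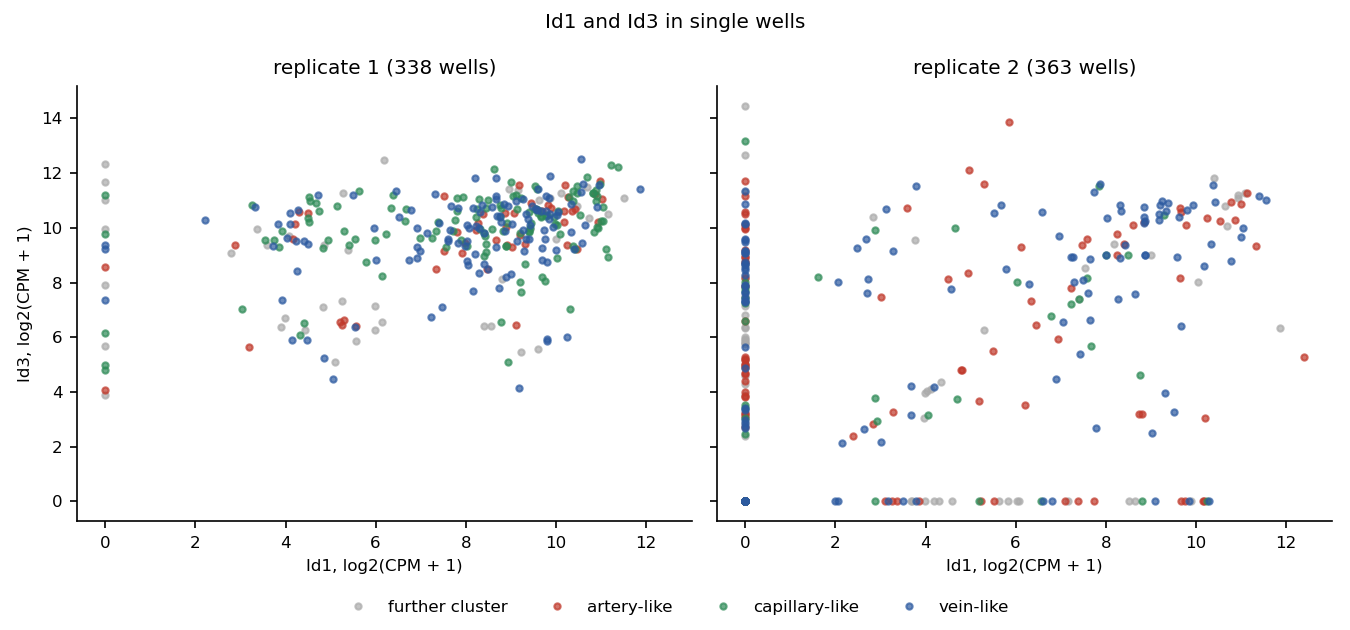
*Id1* (horizontal) against *Id3* (vertical) in each kept well on a log2(CPM + 1) scale, replicate 1 on the left and replicate 2 on the right, coloured by class. Wells of all classes mix along the cloud, and in replicate 2 many wells sit at 0 for one gene or both.

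The genes next in likeness to the Id pair were shared in part. *Sox18*, a SoxF transcription factor of endothelium, ranked 2 for both, with 0.245 and 0.280 for *Id1* and 0.221 and 0.306 for *Id3* in replicates 1 and 2. *Ly6a*, which encodes Sca-1, ranked 3 for *Id1* at 0.258 and 0.207, and the tetraspanin-like gene *Tm4sf1* ranked 3 for *Id3* at 0.208 and 0.307. *Id2*, which 19.8% of replicate 2 wells held, was under the limit for ranking, and its correlation was 0.046 and 0.076 with *Id1* and 0.054 and 0.116 with *Id3*.

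The receptors did not vary with the Id genes to a like degree, but they differed in wells without a read. In kept wells of replicate 2 no read was found in 70.5% for *Acvrl1*, 49.9% for *Bmpr2* and 12.1% for *Eng*. For *Id1* it was 46.8% and for *Id3* 28.9%. The part of this in the correlations was not tested. *Bmpr2* and *Id1* had 0.106 and 0.090, and *Acvrl1* and *Id1* 0.0098 and 0.059. *Eng* and *Id1* had 0.043 in replicate 1 and 0.232 in replicate 2, where *Eng* also had 0.457 with the number of reads. *Acvrl1* and *Eng*, whose proteins form 1 receptor complex, had −0.0026 and 0.116, and *Acvrl1* and *Bmpr2* 0.137 and 0.070. Ranks by likeness moved with the setting: among the 3923 genes, *Bmpr2* ranked 237 for *Id1* in kept wells, 566 after thinning and 1516 in the 3 classes alone, and 267, 1190 and 850 for *Acvrl1*. Over all 45 pairs of members the median was 0.017 and 0.066, 23 pairs were above 0 in both replicates and 9 were below 0 in both.

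**Figure D4:**
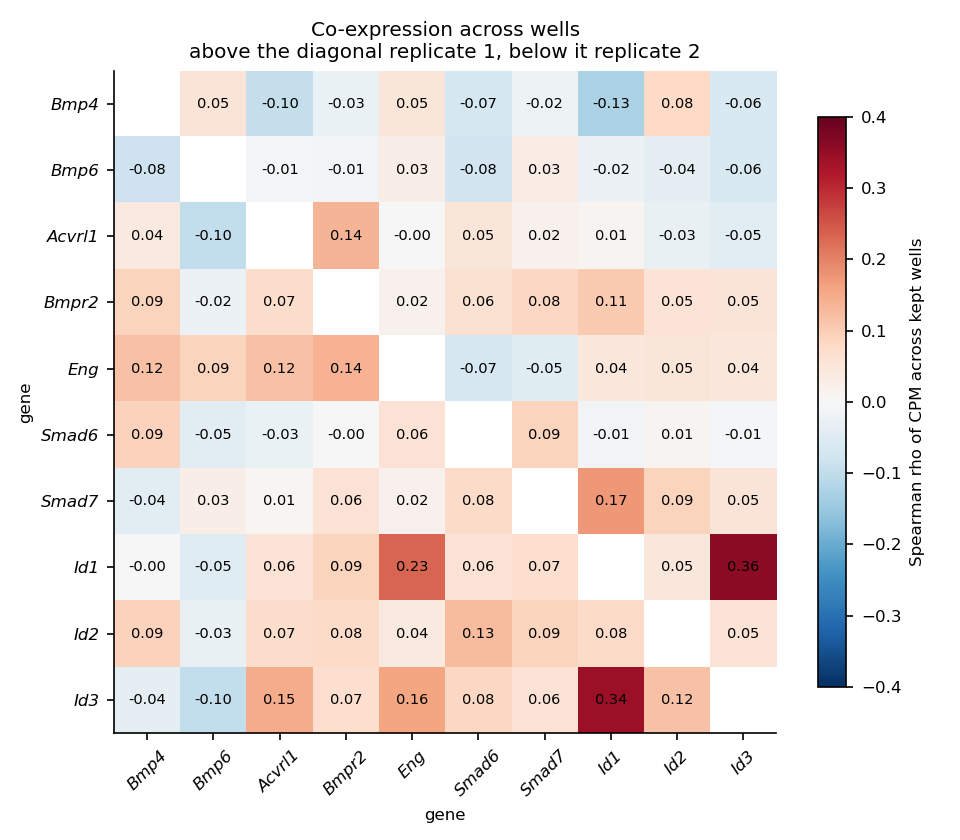
Spearman correlation of CPM across kept wells for each pair of the 10 genes, replicate 1 above the diagonal and replicate 2 below it, on a colour scale from −0.4 to 0.4. The *Id1* and *Id3* cells, 0.36 and 0.34, are the darkest on both sides, and most others lie near 0.

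For the receptors the likest genes were other than members. *Eng* was closest to *Ehd4*, an endocytic recycling gene (0.243 and 0.380), the water channel gene *Aqp1* (0.228 and 0.373) and the fatty acid-binding protein gene *Fabp5* (0.228 and 0.240). *Acvrl1* was closest to *Pls3* (0.165 and 0.190), *S100a11* (0.180 and 0.161) and *Itgb1* (0.179 and 0.159), and *Bmpr2* to *Uqcrq* (0.213 and 0.228), *Parp14* (0.219 and 0.209) and *Fam166a* (0.192 and 0.216). After thinning, none of the 3 genes listed for *Acvrl1* and none of those for *Bmpr2* stayed among the closest 3, and *Ly6a* for *Id1* and *Fabp5* for *Eng* dropped out. *Ehd4* and *Aqp1* stayed for *Eng*, *Id3* and *Sox18* for *Id1*, and *Id1*, *Sox18* and *Tm4sf1* for *Id3*.

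Wells outside the BEC filter gave a view of the members in other cell types of the same plates. In replicate 2, 40 wells had both *Prox1* and *Lyve1* at 100 CPM or more (lymphatic-marker wells), though Lyve1 had been gated out in the sort. Another 38 wells had *Pdgfrb* or *Kcnj8* at 300 CPM or more and *Pecam1* under 100 CPM (mural-marker wells). The kept wells of replicate 2, the reference here, include 92 wells of the further cluster. The lymphatic markers summed to 3525 CPM in those 92 wells, against 121 to 591 CPM in the classes, so the reference holds lymphatic reads too. In the lymphatic-marker wells *Id1* had 2.37 and 36.3 CPM on plates A and B, against 257 and 256 CPM in the kept wells of the same plates. *Id3* had 86.8 and 97.8 CPM against 415 and 754 CPM. *Eng* had 712 and 157 CPM against 1269 and 788 CPM. *Id1*, *Id3* and *Eng* were thus lower in lymphatic-marker wells on both plates, at 0.0822, 0.158 and 0.398 times the kept-well level over the replicate, and *Bmpr2* had 0.907 times, being higher on plate A and lower on plate B.

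In the mural-marker wells *Id3* had 525 and 902 CPM on plates A and B of replicate 2, which is 1.14 times the kept-well level over the replicate, and *Id1* had 179 and 47.4 CPM, or 0.497 times. *Eng* had 152 and 240 CPM there and *Acvrl1* 42.9 and 61.5 CPM, and *Smad6* had no read in the 38 wells. Replicate 1 held 8 mural-marker wells, with *Id3* at 691 CPM and *Id1* at 126 CPM, 0.553 and 0.220 times the kept-well level, so the direction for *Id3* turned between replicates. It held 2 lymphatic-marker wells. These wells were chosen by markers, come from 1 replicate for the most part and were not tested. The choice of mural-marker wells by low *Pecam1* favours low levels of other endothelial genes. Their endothelial markers summed to 106 CPM in replicate 2, against 4426 CPM in kept wells. Their fibroblast markers summed to 5078 CPM against 873 CPM, so their reads were not mural alone. The part of either in the members' levels was not tested. Median depth was 59871 reads in the lymphatic-marker wells, 170239 in the mural-marker wells and 92974 in the kept wells of replicate 2.

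**Figure D5:**
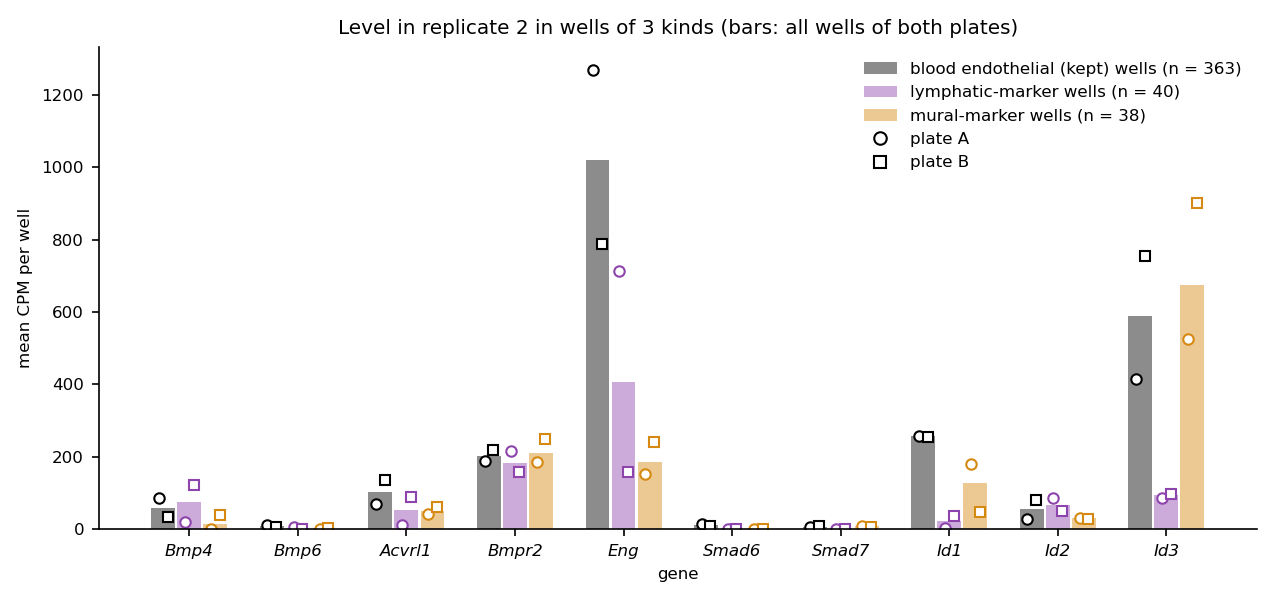
Mean CPM per well of each gene in replicate 2 (vertical axis, linear from 0) in kept wells (further cluster included), lymphatic-marker wells and mural-marker wells. Bars are over all wells of both plates and points are plates A and B. *Id1* and *Id3* bars are lowest in the lymphatic-marker wells, and the mural-marker bar of *Id3* reaches that of the kept wells.

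The rest of the pathway was read from a list of 53 genes, of which 31 passed the limit on low counts and 23 had at least 10 CPM in kept wells as a mean of the replicates. None of the 31 passed the edgeR threshold in any comparison in either direction. At an unadjusted p under 0.05, 2 were higher in artery-like wells, 2 lower in capillary-like wells and 1 lower in vein-like wells, near the 4.15%, 4.19% and 4.88% of all genes. DESeq2 called 1 of the 31, *Smurf1*, lower in capillary-like wells (adjusted p = 0.0161), beside 1.9% of all genes, and limma called 0.

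Of the 12 further ligand genes, *Bmp7* had 0.882 and 22.2 CPM in replicates 1 and 2 and *Bmp8b* 6.17 and 7.51 CPM. In the 3 classes *Bmp7* had only 0.845, 1.87 and 0.146 CPM (artery-, capillary- and vein-like, means of the replicates), so most of its reads lay in the further cluster. *Gdf2*, which encodes BMP9, had 0 and 0.859 CPM and *Bmp10* no read in 701 wells. Among the other receptors *Acvr2a*, a type II receptor, had 50.2 and 71.7 CPM and the co-receptor gene *Rgmb* 53.8 and 41.4 CPM. Of the type I receptor genes, compared per kilobase of exon, *Acvrl1* had 61.0 and 24.2 CPM per kilobase in replicates 1 and 2, *Acvr1* (ALK2) 3.42 and 8.80 and *Bmpr1a* (ALK3) 0.118 and 0.261, an order that held in both replicates.

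The transducers *Smad1* and *Smad5* were both counted, at 172 and 190 CPM for *Smad1* and 128 and 116 CPM for *Smad5*, whereas *Smad9* had 0.192 and 1.38 CPM. *Smad1* differed by 1.08 on the log2 scale in artery-like wells (SE 0.41, edgeR adjusted p = 1.0) and by −1.30 in capillary-like wells (SE 0.44, adjusted p = 0.91), among the 5 values just counted. *Smurf1*, a ubiquitin ligase for these Smads, differed by 1.93 (SE 0.80) and −3.0 (SE 0.99) in the same comparisons with the same adjusted p.

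Of the modulators, the extracellular *Mgp* (matrix Gla protein), a BMP antagonist, had 105 and 134 CPM and *Crim1* 34.0 and 79.2 CPM, while *Nog*, *Chrd* and *Grem1* were each under 1 CPM. Inside the cell *Fkbp1a*, whose protein FKBP12 keeps type I receptors silent, had 950 and 650 CPM, and the pseudoreceptor gene *Bambi* 162 and 63.5 CPM. The further targets *Atoh8* and *Msx1* had 34.6 and 11.8 CPM and 31.4 and 10.7 CPM. *Tcf4*, an E protein partner of the Id proteins, had 564 and 574 CPM, *Tcf12* 80.8 and 110 CPM and *Tcf3* 113 and 76.1 CPM. *Tcf4* differed by −0.75 on the log2 scale in vein-like wells (SE 0.27, edgeR adjusted p = 0.99).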

How the data were processed

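Wells of 4 plates, each from CD31+/CD45-/Lyve1- cells of the ear dermis, formed 1 group of 2 replicates. Per the labels and the study's methods, the authors aligned reads to mm10 with TopHat2 2.1.1, took out duplicates with SAMtools 0.1.18 and assigned reads to genes with Subread 1.4.6-p5. What was deposited is unnormalized read counts, and the annotation release is not given in the sources used here. Of 46517 identifiers, 46005 were given symbols, and coordinates and exon lengths, through GENCODE vM21. The 92 spike-ins stayed out of library sizes.

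Kept wells had at least 600 counts, 500 to 8000 genes, reads of 2 or more among *Kdr*, *Pecam1* and *Cdh5*, and less than 100 CPM for *Ptprc*, *Kcnj8*, *Pdgfrb*, *Prox1* and *Lyve1* alike. Doublets were not called beyond the gene limit. No 2 wells held identical counts. Kept wells had 1927 to 569668 reads. Size factors came from scran 1.30.0, and leidenalg 0.10.2 clustered 15 components of 1000 variable genes at resolution 0.4, the lowest with all 3 classes in both replicates; members, pathway genes and dissociation-induced genes were left out. A cluster took the class with the most fixed markers at least 1.25 times higher than in other wells, so names are rebuilt and may differ from the study's.

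Counts summed per replicate and class (6 sums) with at least 10 counts in 2 sums entered a quasi-likelihood fit of edgeR 4.0.16 (scaled by TMM, with replicate as a block, since classes of a replicate share its mice; same-replicate deviations correlated at 0.164, 0.175 and 0.0966), adjusted by Benjamini-Hochberg at 0.05. DESeq2 1.42.0 and limma 3.58.1 (log2(CPM + 1)) were alternatives, beside other filters, class definitions, thinning and left-out plates and replicates. Levels are mean CPM per well, and correlations are Spearman's within a replicate.

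The 10 genes, the lists and the tests were chosen with earlier results of these data known. All members are named, each with the log2 difference of its comparison with the smallest unadjusted p. Pathway genes are named where they passed a test or were among the 2 highest by mean CPM of their kind, others being named after their values were seen, and genes most like a member are its top 3.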

Additional observations from a re-analysis of the deposited data

Results flagged for a closer look

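Of 40 sets of 4 plates examined (each member in kept wells and in each class), 3 had a plate that stood apart from the other 3 by Dixon's criterion, where chance alone gives about 1 in 20. All 3 were in artery-like wells. *Bmp4* had 179 CPM on plate A of replicate 2, where 5 of 47 wells held a read, against 6.79 to 34.5 CPM on the others. *Smad6* had 0 CPM on plate A of replicate 1, which held 15 artery-like wells, against 16.6 to 18.9 CPM. *Smad7* had 57.8 CPM on plate B of replicate 1, with a read in 12 of 33 wells, against 0.478 to 2.63 CPM.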

How the results depend on the processing

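No member was called under any setting. The number of genes called depended on the tool and the filter: for artery-, capillary- and vein-like wells it was 0, 0 and 3 with edgeR, 229, 299 and 218 with DESeq2, 9, 7 and 32 without the filter on low counts and 5, 16 and 13 with a limit of 10 CPM, which left 18 wells in replicate 1, 2 of them artery-like. Vein-like calls numbered 1 with classes from marker scores, 0 with limma and 2 without the replicate block, and without single plates they ran from 0 (without plate A of replicate 2) to 5, capillary-like calls from 0 to 1. Of the 160 recomputed log2 differences of the members, 18 changed sign: *Acvrl1* to −1.64 and *Smad6* to 1.99 at 10 CPM; *Id2* to −0.26 and *Id3* to 0.087 at 300 CPM; *Bmpr2* to −0.075 and *Smad7* to −0.96 with marker scores; *Smad7* to −0.087 and *Id2* to −0.0074 at the next higher resolution; *Smad7* to −1.03 without the replicate block; *Id3* to 0.018 without the filter; and *Id2* to −0.11 and *Id3* to 0.087 with limma. Without single plates or replicates, *Smad6* ran from −2.17 to 0.31, *Smad7* from −1.96 to 3.97, *Id2* from −1.70 to 1.4 (−0.0054 without replicate 2) and *Id3* from −0.20 to 0.18 (0.097 without replicate 1); the cause was not tested. *Eng*, *Bmp4*, *Bmp6* and *Id1* kept their sign in all 16 settings. The mean *Id1* and *Id3* correlation of 0.350 was 0.346 thinned, 0.404 at 10 CPM, 0.354 at 300 CPM and 0.345 without the further cluster, a setting chosen after seeing the data.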
